A study of Mus musculus with 12 samples.

Results

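The Ifi200 family (also called the HIN-200 or PYHIN family) is a block of related interferon-inducible genes on mouse chromosome 1. The 10 members described here, out of 55348 genes counted, are Aim2, Ifi206, Ifi213, Ifi209, Ifi207, Ifi204, Mndal, Ifi211, Ifi203 and Ifi202b. They were picked by name because, in organs of Corti lacking clarin-1, some of them were over-expressed and others under-expressed relative to wild-type. The comparison of Clrn1-/- with wild-type therefore chose the members, and its values are given as a description without a test.

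RNA was sequenced from organs of Corti of mice at postnatal day 21 (P21), in 3 libraries for each of 4 genotypes, 12 libraries in all. Clrn1-/- mice lacked clarin-1 in every tissue, after a floxed exon 4 of Clrn1 had been deleted with PGK-cre, a constitutively expressed recombinase. Clrn2-/- mice carried the clarinet nonsense mutation, which truncates clarin-2 in every tissue, and Clrn1-/-Clrn2-/- mice came from crossing the single mutants. Wild-type mice came from separate breedings and were not littermates of these mutants. The sources used here do not give the strain background of these lines, so genotype and background cannot be told apart in comparisons between them.

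Proteins of this family usually join a pyrin domain, which recruits other signalling proteins, to a HIN domain that binds double-stranded DNA. AIM2 is a sensor of DNA in the cytosol that assembles an inflammasome with the adaptor ASC and caspase-1. p202, the product of Ifi202b, has HIN domains but no pyrin domain, binds the same DNA and restrains AIM2. The family is best known from macrophages and other immune cells, where interferons raise its expression. The gene content of the block and the expression of Ifi202b are known to differ strongly between inbred mouse strains.

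Because these genes are interferon-inducible, the 250 bases before each annotated start were searched for the core of the interferon-stimulated response element, GAAANNGAAA, on both strands. RefSeq promoter sequences (GRCm38.p6) were at hand for 9 of the 10 members, in 11 windows. The core occurred in windows of 6 members (Ifi206, Ifi213, Ifi207, Mndal, Ifi211 and Ifi203), against 3.46% of 27025 genes with such windows. Its stretches are shown because they place these members side by side. Capitals mark the core, or in Ifi209 the shorter AAATCGAAA, which overlaps the core and was searched after the sequences had been seen. It was taken as the longest run shared by the Ifi206 core and the Ifi209 window. Its presence in those members was thus fixed in advance, and its share of 0.118% of genes is no test of them. All stretches are written 5′ to 3′ on the gene's strand.
Ifi206 (chr1:173491339-173491368, minus strand): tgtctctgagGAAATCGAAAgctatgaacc
Ifi213 (chr1:173599326-173599355, minus strand): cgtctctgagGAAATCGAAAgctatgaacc
Ifi209 (chr1:173630771-173630799, plus strand): atctctgagtAAATCGAAAgagatgcact
Ifi207 (chr1:173741831-173741860, minus strand): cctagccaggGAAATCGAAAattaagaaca
Mndal (chr1:173880204-173880233, minus strand): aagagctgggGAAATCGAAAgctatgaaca
Ifi211 (chr1:173913064-173913093, minus strand): caaagccaggGAAATTGAAAgctatgaacg
Ifi203 (chr1:173942508-173942537, minus strand): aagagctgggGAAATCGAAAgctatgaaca

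The Mndal and Ifi203 stretches were the same in all 30 bases, and the closest 250-base windows of this pair were 89.3% identical. The windows of Ifi206 and Ifi213 were 75.6% identical and those of Ifi207 and Ifi211 were 85% identical. Neither searched sequence was found before the starts of Ifi202b and Aim2. The last 50 bases before their starts are given for comparison, with nothing in capitals.
Ifi202b (chr1:173982845-173982894, minus strand): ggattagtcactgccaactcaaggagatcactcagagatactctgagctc
Aim2 (chr1:173420554-173420603, plus strand): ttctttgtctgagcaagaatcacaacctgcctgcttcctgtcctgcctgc
These matches describe letters in the reference sequence only.

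Each library held between 30008679 and 41049302 reads counted on genes, with a median of 36519360.5. Clrn1, on chromosome 3, fell from 25.8 ± 2.47 CPM (reads scaled to library size) in wild-type to 2.83 ± 0.185 in Clrn1-/- and 2.31 ± 0.482 in Clrn1-/-Clrn2-/- mice (mean ± SD, n = 3, as throughout). Clrn2, on chromosome 5, was at 2.72 ± 0.727 CPM in wild-type and at 1.23 ± 0.172 and 1.08 ± 0.138 CPM in Clrn2-/- and double-mutant mice, and it was also low in Clrn1-/- mice, at 0.916 ± 0.107 CPM. Hair cell and supporting cell markers (10 genes each) were detected in every genotype. The hair cell markers summed to between 319.9 and 384.1 CPM over the wild-type libraries, 385 and 514.7 over Clrn2-/-, 331.6 and 391.7 over Clrn1-/-, and 447.1 and 484.5 over double-mutant libraries. The supporting cell markers summed to 2435 to 2690 CPM over wild-type, 2839 to 3515 over Clrn2-/-, 2784 to 3112 over Clrn1-/- and 5235 to 5728 over double-mutant libraries, the last lying above all others. Such sums are weighted toward the most abundant genes of a list. In double mutants relative to Clrn2-/- mice 1 of the 10 supporting cell markers was called, with a list median of 0.25 on the log2 scale. That list includes Otog, Otogl, Tectb and Ceacam16, which the paper counts among genes of transduction and tectorial membrane coupling. Macrophage markers (20 genes) were detected in every genotype too. Their summed level in CPM ran from 246.6 to 312.5 over the wild-type libraries, 293.5 to 362.6 over Clrn2-/-, 402.6 to 442.3 over Clrn1-/- and 433.3 to 498.7 over double-mutant libraries. In bulk tissue, fewer cells of a type and less RNA per cell cannot be told apart.

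On GRCm38, the members lie on chromosome 1 between 173350879, the start of Aim2, and 173982744, the end of Ifi202b. Aim2 and Ifi209 are on the plus strand and the other members on the minus strand. Mndal, annotated from 173849126 to 173942491, spans Ifi211 and overlaps Ifi203 on the same strand. Other genes of that strand share 155 exon bases of Mndal, 37 of Ifi203 and 0 of Ifi211. All 10 members passed the filter on low counts. As the genes are close relatives, the share of 100-base words in their exons that also occur in another gene was computed. It was 0% for Aim2 and Ifi202b, 6.38% for Mndal, 13.1% for Ifi206 and 16.9% for Ifi209. For Ifi211 it was 56.9%, Ifi205 being the gene that shared the most of these words, so the level of Ifi211 is uncertain.

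Per kilobase of exon, Mndal was the most abundant member in wild-type organs of Corti, at 1.43 ± 0.161 CPM per kb. Ifi203 followed at 1.12 ± 0.17 CPM per kb, Ifi207 at 0.755 ± 0.111 and Ifi204 at 0.491 ± 0.087. The difference between Mndal and Ifi203 was within the sum of their SDs. Ifi209 (0.404 ± 0.0909), Aim2 (0.326 ± 0.0854) and Ifi211 (0.301 ± 0.0215) also lay within their SDs of each other in CPM per kb. Ifi213 and Ifi206 were low, at 0.155 ± 0.0617 and 0.128 ± 0.0462 CPM per kb, and Ifi202b had no read in any wild-type library. In Clrn1-/- mice the order was another, with Ifi202b first at 2.43 ± 0.435 CPM per kb. Ifi207 and Aim2 came next there, at 0.699 ± 0.109 and 0.60 ± 0.123 CPM per kb, while Mndal was at 0.0336 ± 0.0112.

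Summed over the 10 members, the level was 21.6 ± 3.36 CPM in wild-type and 12.5 ± 2.43 CPM in Clrn1-/- mice. It was 23.1 ± 3.92 CPM where clarin-2 alone was lost and 19.0 ± 2.90 CPM in double mutants. Ifi202b made up 32.9% of this sum in Clrn1-/- mice and 5.72% in double mutants, against 0% in wild-type. Mndal made up 23.99% of the sum in wild-type, 21.3% in Clrn2-/-, 15.6% in double mutants and 0.972% in Clrn1-/- mice.

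**Figure D1:**
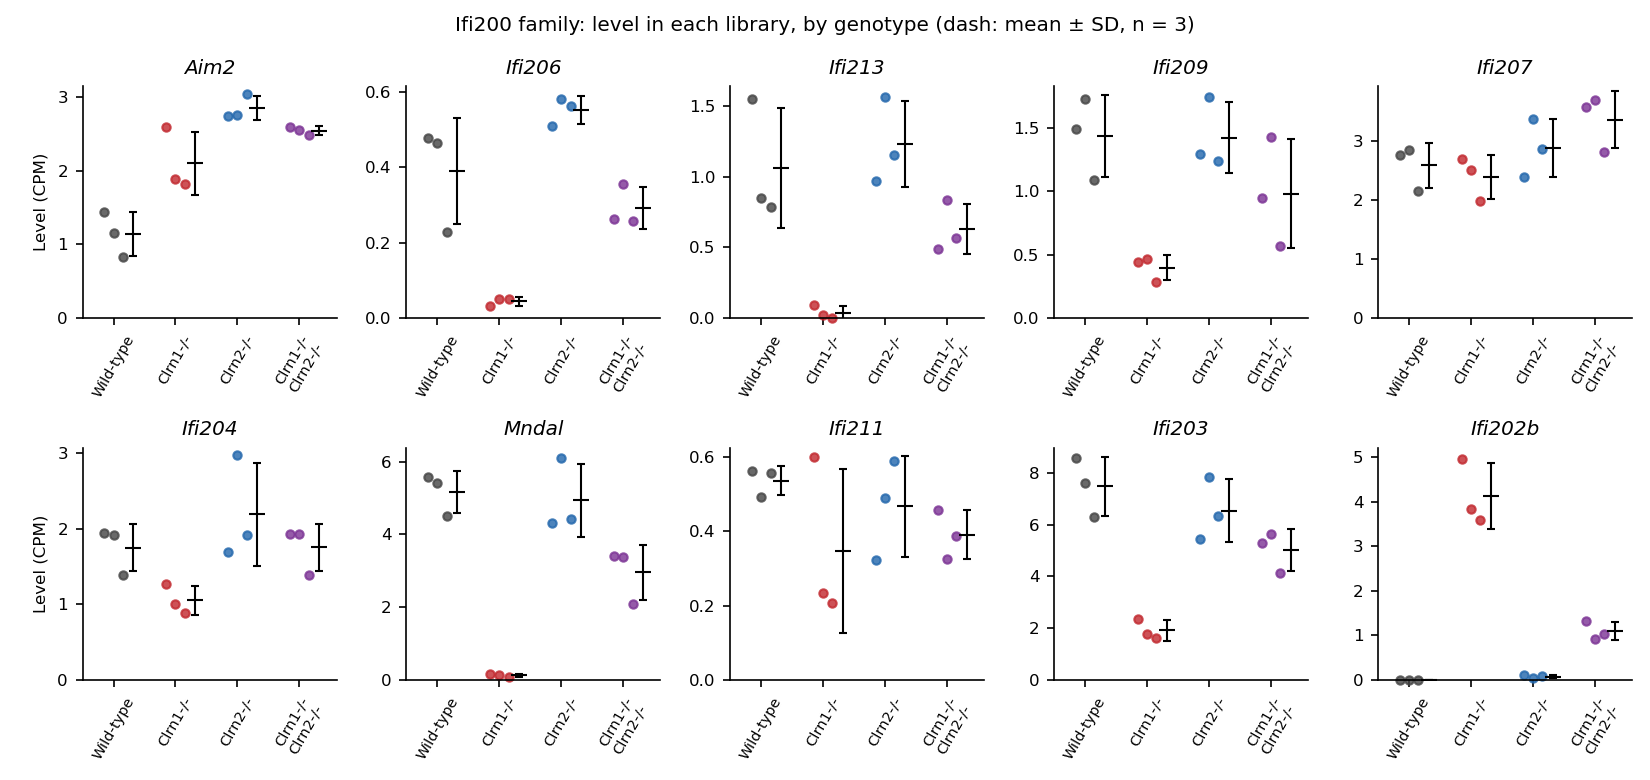
Level of each family member in CPM (y axis, starting at 0 and scaled per gene) in the 3 libraries of each of the 4 genotypes (points), with mean ± SD beside them. Ifi202b is at 0 in all wild-type libraries and highest in Clrn1-/- libraries, and Mndal runs the other way, with double mutants between the single mutants for both.

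Ifi202b, the pyrin-less antagonist of AIM2, had 0, 0 and 0 reads in wild-type and 157, 148 and 138 reads in Clrn1-/- libraries. It had 4, 1 and 3 reads in Clrn2-/- and 40, 31 and 40 in Clrn1-/-Clrn2-/- libraries. The genotypes did not overlap, as was so for 40.2% of all genes between Clrn1-/- and wild-type. With wild-type set at 3 counts per library, the level in Clrn1-/- mice was at least 51.1-fold higher.

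Mndal, which encodes the myeloid nuclear differentiation antigen-like protein, had 199, 198 and 178 reads in wild-type and 5, 5 and 3 in Clrn1-/- libraries. In Clrn2-/- libraries it had 160, 199 and 157 reads, overlapping wild-type once scaled to depth, and in double mutants 104, 114 and 81. Summed over libraries and scaled to depth, wild-type held 43.1 times the Mndal reads of Clrn1-/- mice, with a 95% counting interval of 25.0 to 81.4. Such intervals cover counting error only.

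In Clrn1-/- relative to wild-type mice, the comparison that chose the members, the log2 fold changes are given as a description. They were -5.39 for Mndal, -4.71 for Ifi213, -2.98 for Ifi206, -1.98 for Ifi203, -1.84 for Ifi209, -0.74 for Ifi204, -0.67 for Ifi211, -0.11 for Ifi207 and 0.88 for Aim2. The call used throughout asks for an adjusted p of at most 0.05, from an edgeR quasi-likelihood test, and a change of at least 1.5-fold. Of all 19052 genes tested in this comparison, 7.22% were called, 3.52% higher and 3.7% lower. Of the members, 2 lay past the call on the higher side (Ifi202b and Aim2) and 6 on the lower side (all but Ifi207 and Ifi211), and since the comparison chose them nothing is read from these counts. In the same comparison 5 of 9 tested neutrophil markers and 1 of 8 tested lymphocyte markers were called higher, and none of either was called lower. The lymphocyte marker Ncr1 had no read in the double mutants.

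Ifi213 had 55, 31 and 31 reads in wild-type and 3, 1 and 0 in Clrn1-/- libraries. Ifi206 had 17, 17 and 9 reads against 1, 2 and 2. Ifi203, a nuclear family member, had 305, 278 and 249 reads against 75, 68 and 62. For these 3 genes every Clrn1-/- library was below every wild-type library. When a library was left out, the log2 fold change of Ifi213 ran from -6.01 to -4.12. Ifi204, whose product p204 takes part in DNA sensing and in differentiation, was reduced less, with 69, 70 and 55 reads in wild-type and 40, 39 and 34 in Clrn1-/- libraries. Ifi211 had 20, 18 and 22 reads in wild-type and 19, 9 and 8 in Clrn1-/- libraries. Its log2 fold change was -1.27 without Clrn1-/- replicate 1, which was past the call. Ifi204 fell short of the call in 4 of the 12 fits that left out a library.

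Loss of clarin-1 could be examined a second time on the background of clarin-2 loss, in libraries that took no part in choosing the members. In Clrn1-/-Clrn2-/- relative to Clrn2-/- mice, Ifi202b rose while Mndal, Ifi206 and Ifi213 fell. Thus 4 of 10 members were called, 1 higher and 3 lower. Of all genes tested, 5.1% were called in this comparison, 3.67% higher and 1.43% lower. The median log2 fold change was -0.35 over the 10 members and 0.001 over all genes tested. Only Ifi202b and Mndal held the call with limma-voom, DESeq2 or the replicate number as a block, so the calls of Ifi206 and Ifi213 were marginal.

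In the Clrn2-/- libraries Ifi202b was at 0.108, 0.0306 and 0.0843 CPM, and in the double mutants at 1.31, 0.921 and 1.03 CPM. Every double-mutant library was above every Clrn2-/- library. The rise was 3.78 on the log2 scale (SE 0.383, adjusted p = 1.09e-05). It rested on 111 against 8 reads, a ratio of 14.2 after scaling to depth with a 95% counting interval of 6.97 to 33.7. The call held in all 21 alternative settings (adjusted p up to 0.000104).

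Mndal was at 4.30, 6.09 and 4.41 CPM in Clrn2-/- libraries and at 3.41, 3.39 and 2.09 CPM in double-mutant libraries. The groups did not overlap, as for 42.4% of all genes in this comparison. Mndal fell by 0.74 on the log2 scale (SE 0.187, adjusted p = 0.00774, range 8.52e-06 to 0.0432 over the alternatives). The change came under 1.5-fold without Clrn2-/- replicate 2 (-0.58) or without Clrn1-/-Clrn2-/- replicate 3 (-0.55).

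Ifi206 was at 0.511, 0.582 and 0.562 CPM in Clrn2-/- and at 0.262, 0.357 and 0.258 CPM in double-mutant libraries. Its log2 fold change was -0.91 (SE 0.324, adjusted p = 0.0479), and the call was lost in 11 of the 12 fits that left out a library. Ifi213 was at 0.968, 1.56 and 1.15 CPM against 0.492, 0.832 and 0.567 CPM. Its log2 fold change was -0.95 (SE 0.341, adjusted p = 0.0495), and 6 of those fits lost the call. Adjusted p ranged from 0.0296 to 0.177 for Ifi206 and from 0.00534 to 0.178 for Ifi213 over the alternatives. In both genes all double-mutant libraries were below all Clrn2-/- libraries.

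The other 6 members did not pass. Ifi203 was at 5.46, 7.87 and 6.32 CPM in Clrn2-/- and at 5.31, 5.65 and 4.13 CPM in double-mutant libraries, a log2 difference of -0.38 with a 95% interval from -0.74 to -0.03. Its libraries overlapped. Ifi209 differed by -0.55 (95% interval -1.17 to 0.08), but its double-mutant libraries spread from 0.567 to 1.43 CPM, and without Clrn1-/-Clrn2-/- replicate 2 it passed the call at -0.94. For Ifi204 the difference was -0.32 (-0.81 to 0.16) and for Ifi211 it was -0.26 (-1.06 to 0.54). Ifi207 differed by 0.22 (-0.14 to 0.59). Aim2 differed by -0.16 (-0.54 to 0.21), so a rise of the size seen in Clrn1-/- against wild-type (0.88) lay outside its interval.

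In this comparison 4 of 20 macrophage markers were called higher and none lower, and the median log2 fold change of the list was 0.42. Supporting cell markers held 1 of 10 called higher, with a list median of 0.25. No hair cell marker of 10 and no neutrophil marker of 9 tested was called by edgeR, each list having 1 at an unadjusted p under 0.05. The part of these cells in the levels of the members was not tested.

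**Figure D2:**
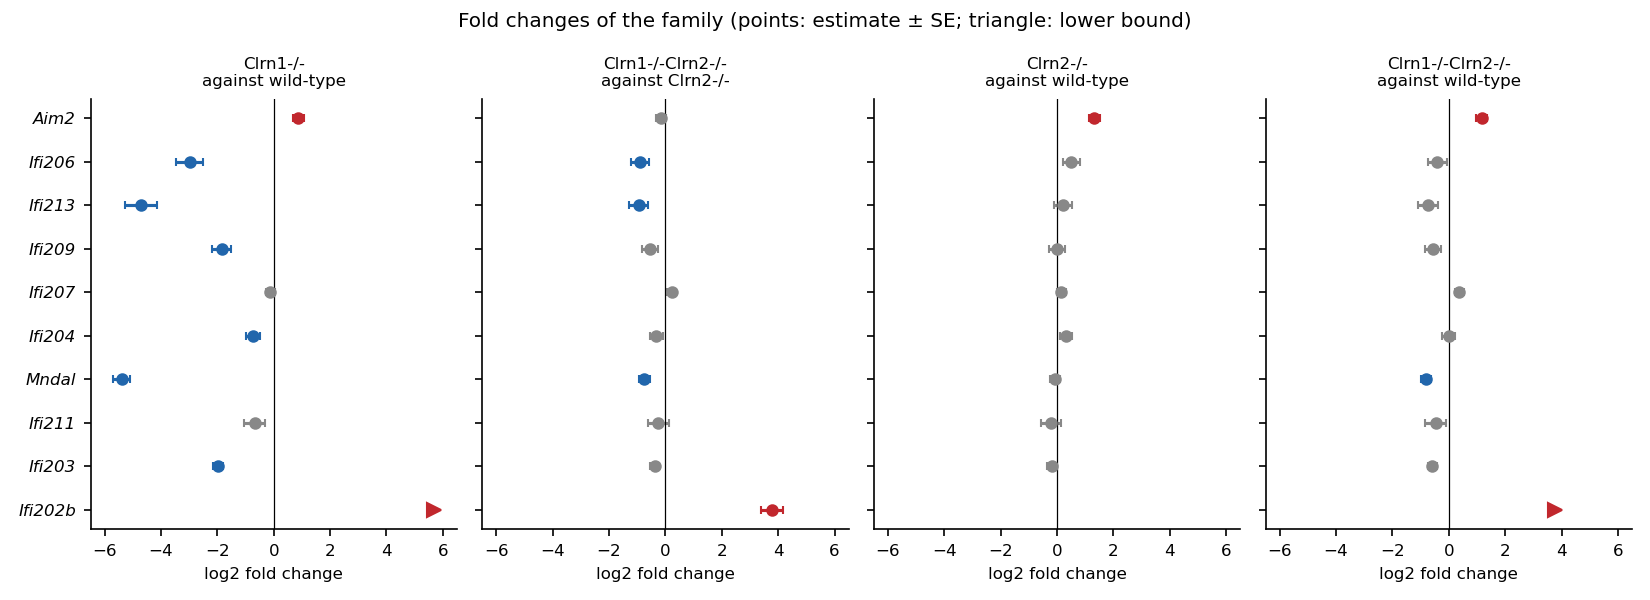
Log2 fold change of each member (x axis) in 4 comparisons, as estimate ± SE. Red marks members called higher, blue members called lower and grey those not called, and triangles mark the lower bound of Ifi202b where wild-type was at 0. Ifi202b in Clrn2-/- against wild-type is not drawn, because its level there was at the floor. Ifi202b lies right of 0 and Mndal left of 0 in both panels on clarin-1 loss.

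Where clarin-2 alone was lost, the family was mostly near its wild-type level. This comparison shares its wild-type libraries with the one that chose the members. Aim2 rose, from 1.43, 1.15 and 0.835 CPM in wild-type to 2.74, 2.76 and 3.04 CPM in Clrn2-/- libraries, with no overlap, as for 29% of all genes here. The rise was 1.33 on the log2 scale (SE 0.191, adjusted p = 0.000242, at most 0.00414 over the alternatives). Of all genes tested, 2.66% were called in this comparison (1.24% higher and 1.42% lower), against 2 of the 10 members. The other called member was Ifi202b (adjusted p = 0.026), with 8 reads in 3 Clrn2-/- libraries and 0 in wild-type. Both groups were at or under 3 counts per library on average, so no fold is given, and the call was lost in 5 of the 12 fits that left out a library. Mndal differed by -0.07 on the log2 scale (95% interval -0.44 to 0.31) and Ifi203 by -0.20 (-0.54 to 0.14). Intervals for Ifi206 (-0.14 to 1.15) and Ifi213 (-0.46 to 0.88) were wide.

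In Clrn1-/-Clrn2-/- relative to wild-type, which shares the same wild-type libraries, 3 of 10 members were called against 9.9% of all genes tested (5.88% higher and 4.02% lower). Ifi202b was at least 13.5-fold higher with wild-type at 3 counts per library (adjusted p = 4.17e-07). Aim2 was at 2.59, 2.56 and 2.48 CPM in the double mutants, a rise of 1.16 over wild-type on the log2 scale (SE 0.194, adjusted p = 0.000187). As a description, the level of Aim2 was above wild-type in all 9 mutant libraries. These include the Clrn1-/- libraries that chose the members, and all are set against the same wild-type libraries. Mndal fell by 0.81 (SE 0.186, adjusted p = 0.00257). Ifi203 was lower in all 3 double-mutant libraries than in any of wild-type, as 48.2% of all genes did not overlap here, at a log2 difference of -0.58 (SE 0.164, adjusted p = 0.011), just short of 1.5-fold. It passed the call in 8 of the 12 fits that left out a library (-0.70 to -0.59), and Ifi209 (-0.56) passed, at -0.94, without Clrn1-/-Clrn2-/- replicate 2. In this comparison 12 of 20 macrophage markers were called higher and the median of the list was 0.66. In Clrn1-/- and Clrn2-/- relative to wild-type 5 and 1 of these markers were called higher, with list medians of 0.48 and 0.20. Supporting cell markers held 5 of 10 called higher and 1 lower in double mutants relative to wild-type, and hair cell markers 3 of 10 called higher. The part of these cells in the levels of Aim2, Ifi202b and Mndal was not tested.

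The double mutants sat between the single mutants for most members. The comparison of double mutants with Clrn1-/- mice shares its Clrn1-/- libraries with the choosing comparison. The members were picked by their levels in those libraries, so the values here are a description and nothing is read from the counts. Relative to Clrn1-/- mice, 6 members were higher and 1 was lower in the double mutants, against 7.23% of all genes called (4.62% higher and 2.61% lower). Libraries did not overlap for 45.9% of genes. Mndal was higher by 4.58 on the log2 scale (SE 0.334), Ifi213 by 3.97 (SE 0.635), Ifi206 by 2.58 (SE 0.514) and Ifi203 by 1.40 (SE 0.19). For Ifi213 and Ifi206 the folds rested on 4 and 5 reads in all Clrn1-/- libraries together. That of Ifi213 ran from 3.38 to 5.26 when a library was left out. Ifi209 and Ifi204 were higher by 1.29 and 0.74. Each of these 2 lost the call in some fits without a library, named for Ifi209 as Clrn1-/- replicate 3 (1.08) and Clrn1-/-Clrn2-/- replicate 2 (0.90), and for Ifi204 as replicates 2 and 3 of Clrn1-/- and 1 and 2 of the double mutants (0.61 to 0.70). Ifi202b was lower by 1.92 (SE 0.207), a 3.79-fold lower level in the double mutants.

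Expressed as a position between the mean CPM of Clrn2-/- (0%) and that of Clrn1-/- (100%), Ifi202b in the double mutants was at 25.0%, with libraries from 20.9% to 30.5%. Mndal was at 41.0% (31.7% to 59.2%) and Ifi203 at 32.8% (19.5% to 52.3%). Ifi213 and Ifi206 were at 50.3% and 51.2%. The ranges of Ifi202b and Mndal did not overlap, while those of the other members shown overlapped that of Mndal. These positions use the Clrn1-/- libraries that chose the members and are a description.

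**Figure D3:**
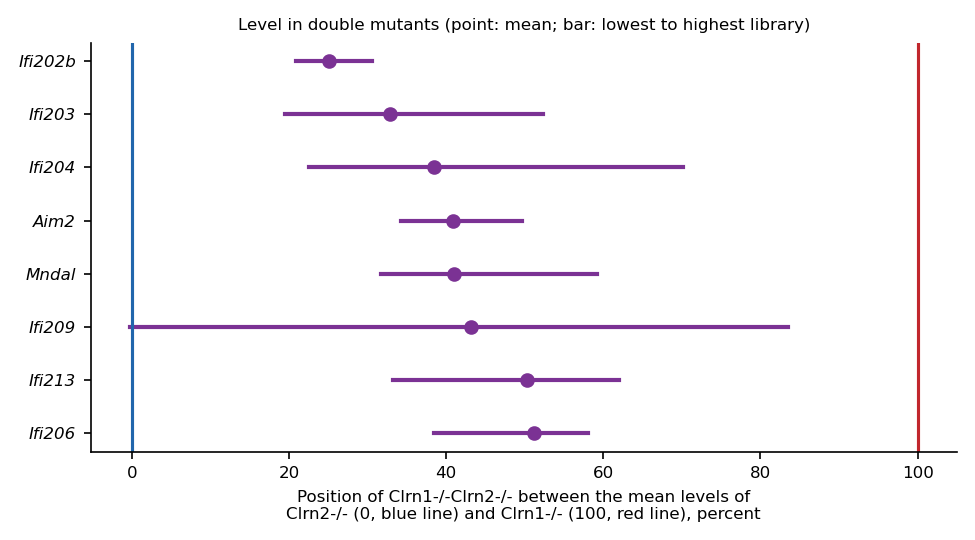
Position of the Clrn1-/-Clrn2-/- level (x axis, percent) between the mean of Clrn2-/- (0, blue line) and the mean of Clrn1-/- (100, red line) for the 8 members called in Clrn1-/- against wild-type. Points are means and bars run from the lowest to the highest of 3 libraries, and every mean lies between 25.0% and 51.2%.

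Other annotated genes of the block were weakly expressed. Ifi208 had 0, 0 and 1 reads in wild-type, 8, 12 and 16 in Clrn2-/-, 9, 14 and 8 in double-mutant and 10, 5 and 0 in Clrn1-/- libraries. Its 36 reads in Clrn2-/- against 1 in wild-type gave a ratio of 38.1 with a 95% counting interval of 6.42 to 1547. Ifi214 had 4, 6 and 9 reads in Clrn1-/- and at most 3 in any other library. Ifi203-ps, a pseudogene, had 27, 27 and 18 reads in wild-type and 10, 6 and 8 in Clrn1-/- libraries. Ifi205 had at most 4 reads in any library.

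Besides the 10 members, 16 genes within 1 Mb of them were tested, among them Ifi208 and Ifi203-ps of the block itself. In Clrn1-/- relative to wild-type 2 of them were called higher (Ifi208 and Gm7897) and 2 lower (Ackr1 and Ifi203-ps), which is 25%, and 3 were called with the replicate number as a block. In Clrn1-/-Clrn2-/- relative to Clrn2-/- mice 1 was called, Gm7897, which is 6.25%. For double mutants relative to wild-type 5 were called (31.25%), and 20 (18.35%) within 5 Mb, against 9.9% of all genes tested. For Clrn2-/- relative to wild-type 1 was called (6.25%), against 2.66% of all genes tested. Gm7897, annotated from 173829799 to 173832254 between Ifi204 and Mndal, had 0, 0 and 0 reads in wild-type, 1, 1 and 0 in Clrn2-/-, 9, 5 and 12 in Clrn1-/- and 14, 8 and 15 in double-mutant libraries. Ackr1, an atypical chemokine receptor, was at 28.7 ± 1.50 CPM in wild-type and 17.8 ± 0.591 CPM in Clrn1-/- mice. Within 5 Mb, 18 of 109 tested genes (16.5%) were called in Clrn1-/- relative to wild-type and 5 (4.59%) in double mutants relative to Clrn2-/-. Farther than 20 Mb away on the chromosome the shares were 9.37% and 5.43%, against 7.22% and 5.1% over all genes tested.

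**Figure D4:**
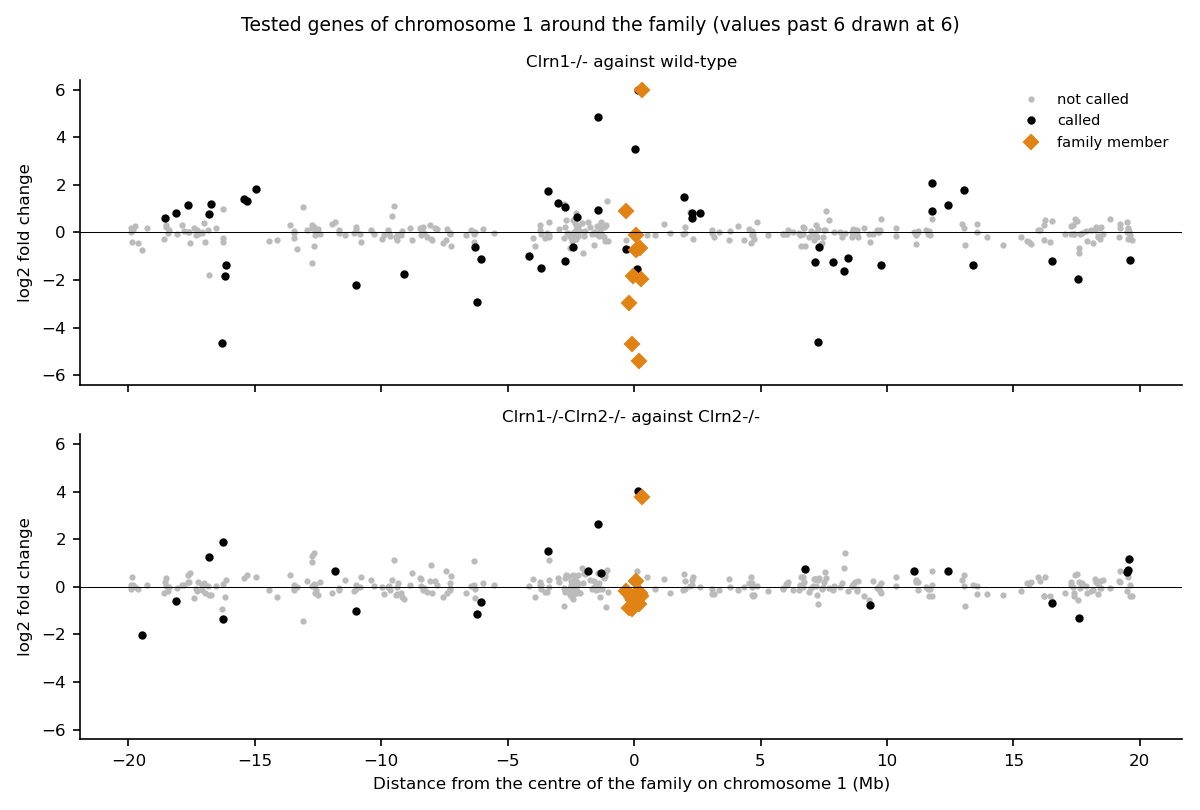
Log2 fold change (y axis) of tested genes within 20 Mb of the centre of the family, by distance along chromosome 1 in Mb (x axis), for the 2 comparisons on clarin-1 loss. Orange diamonds are family members, black points other called genes and grey points genes not called. In Clrn1-/- against wild-type members reach both ends of the axis, where values past 6 are drawn at 6, and other called genes are scattered on both sides of the family.

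Across the 12 libraries, the genes whose log2 CPM followed Mndal most closely, by Pearson correlation among 15869 candidates, were Ccl27a (0.992), Copa (0.990), Cryzl2 (0.987), 4930481A15Rik (0.987) and Gm3055 (0.982). Ccl27a, a skin-homing chemokine gene on chromosome 4, had 19.1 ± 0.372 CPM in wild-type mice, 18.7 ± 1.11 in Clrn2-/-, 11.9 ± 0.886 in double mutants and 1.01 ± 0.228 in Clrn1-/- mice. Copa, which encodes a subunit of the COPI coat, and Cryzl2 both lie on chromosome 1. Copa was at 300.4 ± 1.03 CPM in wild-type and 206.5 ± 3.68 in Clrn1-/- mice. The libraries form 4 genotypes, so these correlations mostly follow the genotype means and carry no p. Of the 50 genes most like Mndal, 10 (20%) were on chromosome 1, 9 of them within 20 Mb of the family and among them the members Ifi203 and Ifi213, against 5.84% of candidates. This count was chosen after the values were seen.

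The genes most like Ifi202b were Tulp4 (0.974), Plau (0.970), Brinp2 (0.969), Gpr149 (0.965) and Scd2 (0.965). Plau, the urokinase plasminogen activator, had 1.07 ± 0.291 CPM in wild-type mice, 1.60 ± 0.0725 in Clrn2-/-, 4.23 ± 0.233 in double mutants and 5.04 ± 0.449 in Clrn1-/- mice. Those most like Aim2 were Hs3st3b1 (0.950), Nppc (0.928), Abcd3 (0.922), Rnf185 (0.915) and Tcf3 (0.911). Nppc, which encodes C-type natriuretic peptide, was at 1.85 ± 0.185 CPM in wild-type and between 3.44 and 4.31 CPM on average in the mutants. Among the 50 genes most like Ifi202b 5 were on chromosome 1, and 1 was among those most like Aim2.

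The pathway into which AIM2 feeds was examined in a list of DNA-sensing and inflammasome genes, 25 of them tested. In Clrn1-/- relative to wild-type, Casp1 (log2 fold change 1.15, SE 0.309, adjusted p = 0.0116) and Casp4 (1.17, SE 0.22, adjusted p = 0.00101), the inflammatory caspases, rose and Naip5 (-0.78, SE 0.117, adjusted p = 0.000148), a receptor for bacterial flagellin, fell. In double mutants relative to wild-type Casp4 (0.89, adjusted p = 0.00526) and Il1b (1.11, adjusted p = 0.0415), the gene of the cytokine interleukin-1 beta, rose, while limma-voom and DESeq2 called 1 gene of the list and so did 6 of the 12 fits that left out a library. The called genes were 12% of the list against 7.22% of all genes in the former comparison and 8% against 9.9% in the latter. None was called by edgeR in Clrn1-/-Clrn2-/- relative to Clrn2-/- mice (5.1% of all genes were), with 8 at an unadjusted p under 0.05 and 0 called by limma-voom or DESeq2. Casp4 was close to the threshold there, at 0.61 (adjusted p = 0.0513). None was called in Clrn2-/- relative to wild-type either, against 2.66% of all genes, with 3 at an unadjusted p under 0.05 and 0 by both other tools. Medians of the list lay between 0.03 and 0.18 in these 4 comparisons. In Clrn1-/- relative to wild-type 5 of 20 macrophage markers and 5 of 9 tested neutrophil markers were called higher. In double mutants relative to wild-type these counts were 12 and 0. The part of these cells in the levels of Casp1, Casp4 and Il1b was not tested.

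Interferon signalling genes and interferon-stimulated genes were counted in a second list, 58 of them tested. Rsad2, an antiviral interferon-stimulated gene, fell in Clrn1-/- mice (log2 fold change -0.87, SE 0.232, adjusted p = 0.0109), and no other gene of the list was called in that comparison, or 1.72% of the list against 7.22% of all genes. The list median was -0.08 there. In double mutants relative to Clrn2-/- mice edgeR called 0 of the 58, with 17 at an unadjusted p under 0.05, limma-voom called 0 and DESeq2 called 1, and the median was -0.10. In Clrn2-/- and double mutants relative to wild-type edgeR called 0, with 8 and 17 at an unadjusted p under 0.05. There limma-voom and DESeq2 called 0 too. Of all genes tested, edgeR called 2.66% and 9.9% in these comparisons, and 5.1% in double mutants relative to Clrn2-/-.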

How the data were processed

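Strand-specific poly-A libraries from whole organs of Corti, dissected free of stria vascularis and modiolus, were read as paired 100-base reads. Per the study's methods, the authors counted them per gene of Gencode vM24 with STAR, and the submitters' processing notes name the build GRCm38.p6. The deposited counts are raw read counts per gene symbol in 3 strand columns, of which the reverse-strand column was used (95.2% to 95.6% of stranded counts). Rows that name no gene were left out of library sizes and held 13.5% to 15.8% of the total. GEO's labels gave the groups. CPM were computed with TMM scaling.

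All 12 libraries entered 1 edgeR 4.0.16 quasi-likelihood fit on genotype, after filterByExpr (minimum count 10), in R 4.3.3, with Benjamini-Hochberg adjustment over 19052 genes and calls at adjusted p of at most 0.05 and 1.5-fold. limma-voom (limma 3.58.1), DESeq2 1.42.0, other filters and scalings, a replicate block and leaving out each library were alternatives. On simulated counts the fit was tested for recovery of changed genes. The authors' own test was limma-voom.

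The members and gene lists were chosen with earlier results of these data known. Named genes are all members, other genes of the block and the 5 genes most like each of Ifi202b, Mndal and Aim2. Up to 3 called list genes per direction were named as well. Neighbours within 1 Mb were named if called in Clrn1-/- against wild-type or in double mutants against Clrn2-/-. Gene positions and exon lengths came from Gencode M21 of the same build, matched by symbol for 53244 of 55348 genes. Replicate chi-square values per gene were 4.02 to 16.6, above sampling noise in every pair. Nothing in the labels says how libraries map to animals, so p-values measure the spread between libraries, which may be partly technical. Deviations of same-numbered libraries correlated at 0.255, 0.122 and 0.103 for Clrn1-/- and wild-type, all above 0.1. For double mutants and wild-type they correlated at 0.255, -0.275 and 0.298. The labels do not say that same-numbered libraries are pairs. No pairing entered the main fit, and the replicate number was used only as a block in an alternative fit.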

Additional observations from a re-analysis of the deposited data

Results flagged for a closer look

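For 6 members the difference between Clrn1-/- and wild-type was unlike that between Clrn1-/-Clrn2-/- and Clrn2-/-. This was measured by an interaction term in the edgeR fit, called for 5.5% of all genes tested. Genotype and strain background cannot be told apart in it. The term contains the comparison that chose the members, so these are values and not independent evidence. The difference, clarin-1 loss on the Clrn2-/- background minus clarin-1 loss on the wild-type background, was 4.65 on the log2 scale for Mndal (SE 0.394), 3.76 for Ifi213 (SE 0.74), 2.07 for Ifi206 (SE 0.613) and 1.60 for Ifi203 (SE 0.249). It was -1.04 for Aim2 (SE 0.263) and -6.42 for Ifi202b (SE 1.20), whose value depends on the prior count because wild-type was at 0.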

How the results depend on the processing

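The choosing comparison kept 7 to 9 of 10 members called in every alternative. As it chose the members, nothing is read from this count. Ifi202b and Mndal kept direction and call in Clrn1-/- and in double mutants against wild-type, the former being that same comparison. In double mutants against Clrn2-/- the count of 4 became 2 with limma-voom, DESeq2, library size alone or the replicate block, and ranged from 1 to 4 when a library was left out. In Clrn2-/- against wild-type it was 2, 1 with only the compared genotypes, and 1 to 2 without a library. In double mutants against wild-type it was 3, 5 without a filter on low counts (Ifi203 and Ifi213 added) and 3 to 5 without a library. In Clrn1-/- against wild-type the replicate block changed no member's call. The labels do not say whether same-numbered libraries belong together in any comparison.

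Signs turned for differences near 0. With library size alone Ifi209 became 0.021 in Clrn2-/- against wild-type and Ifi204 became 0.038 in double mutants against wild-type, where the replicate block gave 0.001. Without a library the ranges were -0.159 to 0.139 for Ifi204 in double mutants against wild-type, -0.236 to 0.013 for Ifi207 in Clrn1-/- against wild-type, and -0.066 to 0.801 for Ifi211 in double mutants against Clrn1-/-. For Clrn2-/- against wild-type they were -0.18 to 0.148 for Ifi209, -0.405 to 0.016 for Ifi211 and -0.244 to 0.026 for Mndal.

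Counts of neighbours within 1 Mb were small. In Clrn1-/- against wild-type 4 became 1 with a filter of 1 CPM in 3 libraries, 2 with only the compared genotypes, 7 without a fold minimum, 18 within 5 Mb and 3 with the replicate block. The 1 gene called in double mutants against Clrn2-/- became 0, 0, 5 and 5 under the same settings. In Clrn2-/- against wild-type 1 became 0, 0, 3 and 2, and 0 with DESeq2. For double mutants against wild-type 5 became 3, 3, 8 and 20. DNA-sensing and inflammasome genes went from 3 to 7 without a fold minimum in Clrn1-/- against wild-type (3 to 6 without a library). They went, in double mutants against Clrn2-/-, from 0 to 5 without a fold minimum and to 1 with library size alone, the 1 CPM filter or the compared genotypes only (0 to 1 without a library). In double mutants against wild-type 2 became 9 without a fold minimum and 1 with limma-voom, DESeq2, the 1 CPM filter or the compared genotypes only (1 to 3 without a library). Interferon genes went from 1 to 6 without a fold minimum in Clrn1-/- against wild-type (0 to 2 without a library). In double mutants against Clrn2-/- 0 became 12 without a fold minimum, 1 with DESeq2 or the replicate block, and 2 without a filter or with the compared genotypes only (0 to 1 without a library). In Clrn2-/- against wild-type 0 became 7 without a fold minimum. In double mutants against wild-type 0 became 13 without a fold minimum and 1 with library size alone, no filter or the replicate block (0 to 3 without a library). With Spearman correlation, 1, 0 and 1 of the 5 genes most like Ifi202b, Mndal and Aim2 stayed. The causes of these changes were not tested. Depth limits Ifi202b in Clrn2-/-, Ifi213 and Ifi206 in Clrn1-/-, Ifi208 and Gm7897, with few reads each.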
